A study of Homo sapiens with 6 samples.

Results

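This account covers 63 of the 986 genes in a table of expression differences between miR-31 KO and control K1 cells. They are the genes whose normalized read count was at 500 or more in all 6 libraries, less 26 such genes left out by family or name, among them zinc finger, solute carrier, chemokine and NF-kappa-B response genes. The members were chosen by these measured values in the same libraries and from a table selected on the same contrast, so their levels and differences are given as a description. K1 is an established human papillary thyroid carcinoma line. It was grown in DMEM with fetal bovine serum and transfected either with a control or with a guide RNA directed at miR-31. There were 3 control libraries and 3 miR-31 KO libraries, although the series text speaks of duplicates. The labels do not say whether the KO cells were a clone or a pool, nor whether libraries of a group came from separate cultures, so the spread between libraries may be technical. Neither miR-31 nor its host gene was among the values used here, so the knockout itself was not checked. Total depth is unknown from the table, and no counting interval of expression is given.

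MicroRNAs are short RNAs that pair through a seed at their 5′ end with sites in messenger RNAs, mostly in the 3′ UTR, and lower the stability or translation of those messengers. miR-31 has a described role in cell movement, adhesion and metastasis, and SOX4, a transcription factor of progenitor and tumour cells, is among its reported targets. Loss of a microRNA is therefore usually read in messengers that hold its sites. In bulk RNA, a change in the make-up of the cells and a change in RNA per cell cannot be told apart.

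The seed of miR-31-5p and a selection of member sites that match it are shown so that the match counted across the members can be read. The selection holds every 8-base match, 1 site each of MAPK11 and SH3TC2, and the sites of the higher genes. Capitals in the microRNA mark bases 2 to 8, the seed, and capitals in the other sequences mark the bases that pair with it, counting an A opposite base 1. The microRNA sequence is from RefSeq (GRCh38.p14, chr9:21512158-21512178, minus strand), and the sites are from GENCODE 29 transcripts on GRCh38, read 5′ to 3′ on the transcript.
hsa-miR-31-5p: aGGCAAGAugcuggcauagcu
NOS1, chr12:117210549-117210572, minus strand: gcagccttttcatTCTTGCCAtta
TRIM59, chr3:160435695-160435718, minus strand: ttgacattttgtaTCTTGCCAgtt
TRIM59, chr3:160435161-160435184, minus strand: cagtgagccaagaTCTTGCCAcag
MAPK11, chr22:50263782-50263805, minus strand: gaaagggggtgaccTCTTGCCtcg
SH3TC2, chr5:149004394-149004417, minus strand: gagaagatgagggaTCTTGCCctc
EPHB2, chr1:22920842-22920865, plus strand: ttttatacacaatgTCTTGCCtaa
SEL1L3, chr4:25747982-25748005, minus strand: ttttggtacctgtgCTTGCCAcag
C2CD2, chr21:41888912-41888935, minus strand: acaaaaaagcccaaCTTGCCAcca

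Sites of at least 7 bases were found in the 3′ UTR of 11 of the 63 genes (17.5%), against 185 of 955 genes of the table (19.4%) and 3664 of 19115 annotated coding genes (19.2%). The match was TCTTGCCA, TCTTGCC or CTTGCCA, searched on the transcript strand in the longest annotated 3′ UTR. Among the genes higher in miR-31 KO it was present in 3 of 30 (10%, 95% Wilson interval 3.46 to 25.6%), which were EPHB2, SEL1L3 and C2CD2. In the genes lower in miR-31 KO it was present in 8 of 33 (24.2%, 95% Wilson interval 12.8 to 41.02%). The intervals cover counting error only, and they overlap each other and the share in the whole table. With 6-base matches counted too, the order turned over, with 46.7% of higher and 39.4% of lower genes. The lower genes with a site of at least 7 bases were NOS1, SH3TC2, FBXO32, MAPK11, KCNQ3, ARHGDIB, TRIM59 and ZHX1. NOS1, with 5 matches in a 3′ UTR of 7167 bases, and TRIM59, with 3, held the most. The median 3′ UTR was 1752 bases in the higher and 1299 bases in the lower genes. SOX4 held only the 6-base match CTTGCC in its 3′ UTR of 2660 bases, and F3 held none in 1235 bases.

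Of the 63 genes, 33 were lower and 30 higher in miR-31 KO, per the authors' deposited table. The table itself lists only genes with an adjusted p under 0.05 and a log2 fold change of at least 1 in size. That is 986 of 16806 tested genes, or 5.87% in either direction, with 3.53% called higher and 2.34% called lower. Every one of the 63 was therefore called by selection, and nothing is read from that count. The sizes were graded and mostly small. In the authors' deposited table the lower genes ran down to -2.38 on the log2 scale with a median of -1.19, and the higher genes up to 1.97 with a median of 1.17. In the table as a whole the medians were -1.61 and 2.14, and the largest change was 9.51 in size. A gene at 500 or more in every library cannot start from 0, so the rule itself sets part of this difference.

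**Figure D1:**
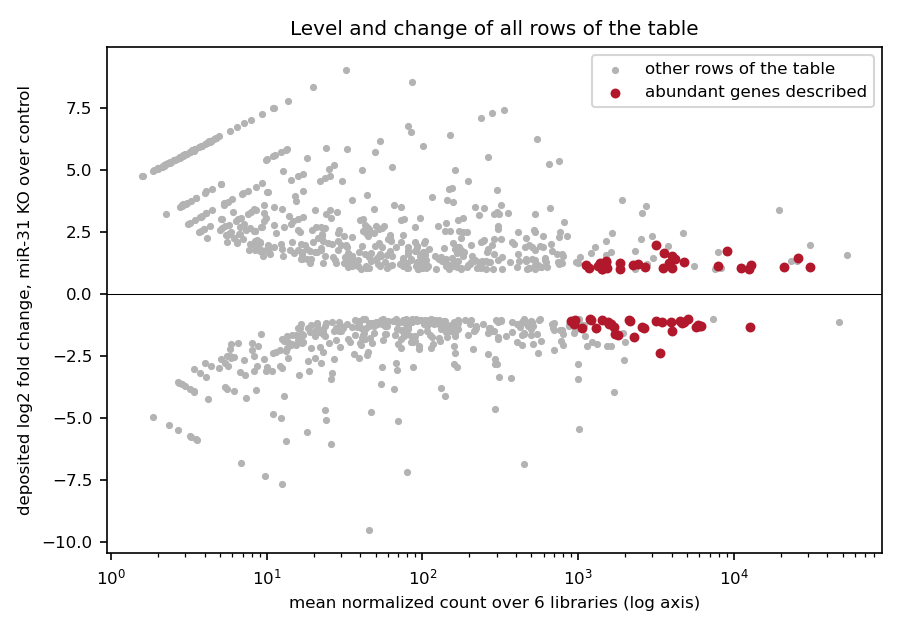
Each point is a gene of the table, with its mean normalized count over the 6 libraries on a log axis against the deposited log2 fold change of miR-31 KO over control. The 63 abundant genes (dark red) lie between -2.38 and 1.97, while other rows reach 9.51 in size at low counts.

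Only L1CAM had a log2 fold change of 2 or more in size, against 45.8% of all rows of the table. At the minimum of 500 the members just inside were EDIL3, whose lowest library had 512 normalized counts, and MAPK11 with 522. Just outside were SEMA3A, whose lowest library had 486, and MAGEA3 with 478, and all of these were lower in miR-31 KO. SEMA3A had a log2 fold change of -1.01 and MAGEA3 of -2.11 in the authors' deposited table.

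The spread between libraries differed by direction. All 33 lower genes had 3 KO values below all 3 control values, and 23 of the 30 higher genes had 3 KO values above all controls. The rows of the table as a whole did so for 94.9% of lower and 91.1% of higher genes (92.6% together). The 7 higher genes with overlapping groups included SOX4, SEL1L3, NAMPT, SIGLEC15, AMPD3 and PLPP3. In each of the 7 control replicate 1 exceeded KO replicate 3. Leaving out either of these libraries separated the groups in all 63 genes. These libraries were singled out by the overlap itself. The share over all rows was not computed, so nothing is read from that count.

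SOX4 and F3, both higher, differed in their spread between libraries. SOX4 (chr6:21592768-21598619, GRCh38, plus strand) held 3954, 2088 and 1753 normalized counts in the controls, in the order of replicates 1, 2 and 3. In the KO replicates, in the same order, SOX4 held 6654, 6289 and 3184. KO replicates 1 and 2 lay above every control, while KO replicate 3 lay below control replicate 1. The means of SOX4 were 2599 ± 1186 and 5376 ± 1907 (SD, n = 3), a 2.07-fold difference. A limma refit gave SOX4 a log2 difference of 1.07 with a standard error of 0.38 and an adjusted p of 0.433, while its adjusted p in the authors' deposited table was 0.00161. Of 48 reported miR-31 targets in a list 4 were in the table, SOX4, ICAM1, RET and CEBPA, all higher. Among all tested genes 5.87% were in the table, and 60.1% of its rows were higher. CEBPA was near 0 in the controls, and RET had 9.14 ± 6.03 there and 24.3 ± 4.08 in the KO libraries (SD, n = 3). This count and those of the other lists are descriptions only.

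F3 encodes tissue factor, the cell surface receptor that starts blood coagulation with factor VII. F3 (chr1:94529225-94541800, GRCh38, minus strand) had 692, 633 and 719.5 normalized counts in the controls. In KO replicates 1, 2 and 3 F3 had 1752, 1683 and 1232. The groups did not overlap, and the lowest KO library was again replicate 3. F3 was 2.28-fold higher, 682 ± 44.1 against 1556 ± 282 (SD, n = 3). The SD of its KO values was 18.1% of their mean, near the median of 17.7% among the higher genes. The limma refit gave a log2 difference of 1.17 with a standard error of 0.19 and an adjusted p of 0.0176. After median-ratio rescaling the refit gave 0.47 with an adjusted p of 0.704. F3 also lost its call without control replicate 2 or 3 and without KO replicate 1 or 2. Of 23 coagulation and fibrinolysis genes in a list, F3 and the protease-activated receptor gene F2RL1 were in the table, both higher. F2RL1 stood at 13.8 ± 9.66 normalized counts in the controls and 78.4 ± 24.2 in the KO libraries.

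The F3 promoter is shown because it is the only promoter among the 22 higher genes with a RefSeq promoter entry that held the AP-1 motif TGANTCA. The sequence is the 250 bases before the start of F3 in RefSeq (GRCh38.p14, chr1:94541760-94542009, minus strand). Capitals mark 2 matches to TGANTCA, from -223 to -217 and from -210 to -204 relative to the start, and 1 match to the TATA box TATAAA on the other strand, from -28 to -23.
F3 promoter: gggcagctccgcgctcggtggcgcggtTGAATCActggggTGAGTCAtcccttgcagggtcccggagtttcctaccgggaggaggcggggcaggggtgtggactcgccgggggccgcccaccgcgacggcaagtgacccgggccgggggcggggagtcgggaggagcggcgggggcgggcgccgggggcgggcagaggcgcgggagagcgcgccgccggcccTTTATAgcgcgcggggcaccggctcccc
Over the 300 bases from 250 before to 50 after the start and on both strands, TGANTCA was found in 5 of 46 member promoters (10.9%) and in 7.76% of 27305 RefSeq promoters. The other 4 were NOS1, LAMA3, S100A2 and MGAT5B, all among the lower genes. The TEAD motif GGAATG was in 4 of 46 (8.70%) against 14.05% of all, SOX4 among them. An NF-kappa-B motif of GGG, 2 free bases and TTTCC was in 0 of 46 against 1.92% of all, and its relaxed form of GGG, 3 free bases and TTCC was in 2 of 46 (4.35%), AMPD3 and MAPK11, against 6.47%. These are matches of letters in a window and say nothing of binding. Near matches were not counted. The F3 promoter shown holds a stretch, cggagtttcc, that differs from the first NF-kappa-B motif only in its first base. A motif not found is therefore not read as a site that is absent.

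**Figure D2:**
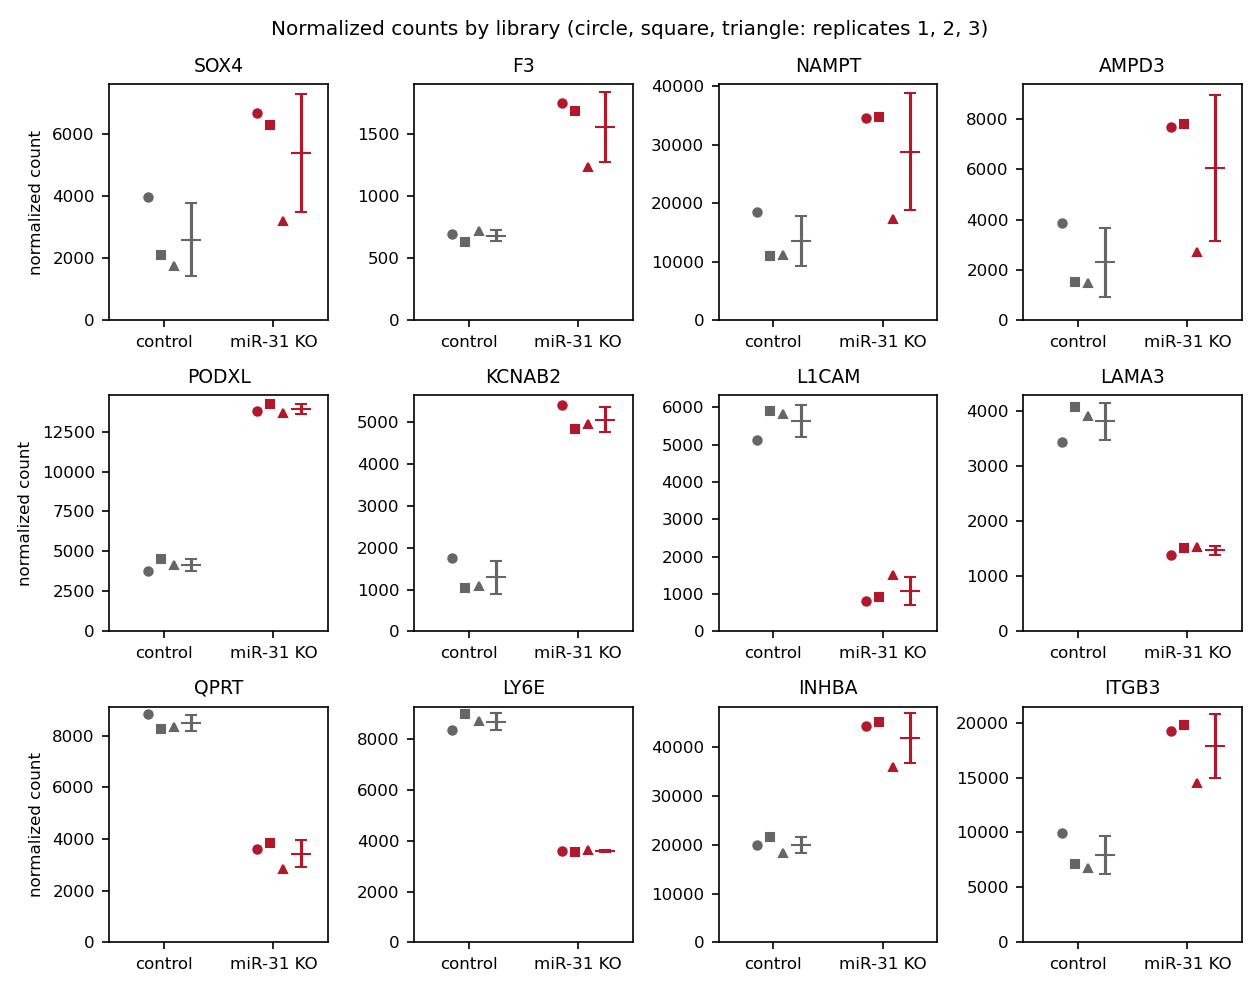
Normalized counts of 12 abundant genes in each library (y axis from 0), with circles, squares and triangles for replicates 1, 2 and 3 and a bar for the mean ± SD of 3 libraries. SOX4, NAMPT and AMPD3 overlap between groups through control replicate 1 and KO replicate 3, while PODXL, L1CAM, LAMA3, QPRT and LY6E do not overlap.

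Matrix and basement membrane genes were mostly lower. The grouping by role was made after the values were seen, and of 8 such genes 6 were lower and 2 higher. LAMA3, the alpha chain of an epithelial laminin that anchors cells to the basement membrane, had 3449.9, 4089 and 3921 normalized counts in the controls and 1382, 1508 and 1538 in the KO libraries. NID2, which links laminin to collagen networks, had 5005, 6039 and 5170.0 in the controls and 2096, 2136 and 3226 in the KO libraries. The perlecan gene HSPG2, a heparan sulfate proteoglycan of basement membranes, had 4372, 5329 and 4545 in the controls and 2251, 2278 and 2055 in the KO libraries. All 3 were lower in every KO library, by 2.59-fold, 2.17-fold and 2.16-fold. A list of 51 matrix genes had 6 in the table, of which COL18A1 and MFAP5 were lower as well and LUM was higher. The median log2 fold change of the 6 was -1.25 in the authors' deposited table. MFAP5 and LUM had low counts. MFAP5 had 22.4 ± 15.3 in the controls and 2.69 ± 3.19 in the KO libraries, with overlapping groups, and LUM had 0 and 8.33 ± 2.89 (SD, n = 3).

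GPC1, a glypican that carries heparan sulfate on the cell surface, had 2716, 4108 and 4175 normalized counts in the controls and 1290.0, 1364 and 1715 in the KO libraries. LTBP4, which holds latent TGF-beta in the matrix, was 2.20-fold lower, and EDIL3, an integrin-binding secreted protein, was 2.13-fold lower. The higher genes of this role were PXDN, a peroxidase that cross-links collagen IV, and CRISPLD1. PXDN had 3416, 2434 and 2521 in the controls and 7304, 7395 and 5573 in the KO libraries. CRISPLD1 had the tightest controls among the higher genes, 767 ± 13.7 against 1579 ± 33.9 (SD, n = 3).

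Of 8 cell surface receptors and adhesion molecules, grouped after the values were seen and without GPC1, 6 were higher, and L1CAM and LY6E were lower. A list of 47 adhesion and junction genes did not lean the same way, with 5 higher and 6 lower of 11 in the table. L1CAM, an immunoglobulin-type adhesion molecule of neurons and of motile tumour cells, had 5134, 5910.3 and 5819 normalized counts in control. Its KO values were 809.8, 917 and 1507, a 5.21-fold lower mean and the largest fold among the 63. KO replicate 3 was the highest of the KO libraries but stayed far below every control. LY6E, a GPI-anchored surface protein, had 8361, 9021 and 8709 in the controls and 3593, 3573 and 3638 in the KO libraries. Its KO values varied by 0.922% of their mean, the smallest KO spread of any lower gene.

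PODXL, a sialomucin that carries charged sugars at the cell surface, had 3789, 4542 and 4155 normalized counts in the controls and 13782, 14232 and 13676 in the KO libraries. The groups were far apart and PODXL had the smallest adjusted p of the 63 in the authors' deposited table, 1.37e-65. ITGB3, the integrin beta chain that pairs with alpha V, had 9916, 7173 and 6791 in the controls and 19259.5, 19751 and 14503 in the KO libraries. EPHB2, a receptor tyrosine kinase for ephrin B ligands, had 9107, 6638 and 6084 in the controls and 15658, 16168 and 13266 in the KO libraries. In both ITGB3 and EPHB2 control replicate 1 was the highest control and KO replicate 3 the lowest KO library, with no overlap. After quantile normalization of the rows, the limma refit gave ITGB3 a log2 difference of 0.57 with an adjusted p of 0.359. For EPHB2 the same refit gave 0.53 with an adjusted p of 0.960.

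SIGLEC15, a sialic acid-binding receptor of the immunoglobulin family, was higher with overlapping groups. SIGLEC15 had 2333, 972 and 864 normalized counts in the controls and 4073, 3806 and 1508 in the KO libraries. It had the largest adjusted p of the 63 in the authors' deposited table, 0.00776. The median log2 fold change of the 11 adhesion list genes was -1.13 in the authors' deposited table. Members among them were PODXL and ITGB3 as higher and L1CAM and GPC1 as lower.

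A role of secreted ligands and 1 secretory pathway kinase, grouped after the values were seen, held 3 genes, all higher on the authors' scale. Other secreted proteins, such as EDIL3, were placed in the matrix role, which had 6 lower and 2 higher genes, so secreted proteins as a whole went both ways. After quantile normalization of the rows, the limma refit gave log2 differences of only 0.15 for INHBA, 0.17 for FAM20C and 0.27 for C1QTNF1, with an adjusted p of 1.0 for each. INHBA, the beta A subunit of activin and inhibin, had 19897, 21533 and 18229.7 normalized counts in the controls and 44235, 45133 and 35906 in the KO libraries. FAM20C, the Golgi kinase that phosphorylates secreted proteins, had 16462, 13254 and 11735 in the controls and 42936, 42190.4 and 28294 in the KO libraries. C1QTNF1, a secreted protein of the C1q and TNF family, was 2.01-fold higher, with no overlap. KO replicate 3 was the lowest KO library in all 3. Of 57 growth factor and receptor genes in a list 8 were in the table, 5 higher and 3 lower, and the members INHBA and EPHB2 were both higher.

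Per kilobase of the longest annotated coding transcript, FAM20C had the highest level in miR-31 KO, 13743 normalized counts per kb, and S100A2 the highest in control, 8229. INHBA followed FAM20C in miR-31 KO with 6886 per kb, and PODXL had 6602. The PODXL value rests on a coding model of 2105 bases with a 3′ UTR of only 180, so its level per kilobase is uncertain. The lowest controls per kb were CADPS with 147 and RCAN3 with 162. On the same per kilobase scale SOX4 went from 444 in the controls to 919 in the KO libraries, and F3 from 298 to 680.2.

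Genes of NAD and purine metabolism went both ways. NAMPT, the rate-limiting enzyme of NAD salvage from nicotinamide, had 18531, 11028 and 11153 normalized counts in the controls and 34514, 34678 and 17262 in the KO libraries. Its groups overlapped, and after quantile normalization of the rows its log2 difference turned to -0.18. QPRT, the enzyme that feeds quinolinate into NAD synthesis, had 8829.5, 8267 and 8346 in the controls and 3626, 3833 and 2846 in the KO libraries. QPRT was lower in every KO library, by 2.47-fold. AMPD3, an AMP deaminase, had 3879, 1537 and 1477 in the controls and 7674, 7789.8 and 2711 in the KO libraries, with overlap. AK5, an adenylate kinase, was 2.28-fold lower with no overlap, 2213 ± 234 against 969 ± 36.8 (SD, n = 3).

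The other genes grouped with the enzymes also went both ways. NOS1, the neuronal nitric oxide synthase, had 2947, 2811 and 2503 normalized counts in the controls and 1017, 1036 and 579 in the KO libraries, and here KO replicate 3 was the lowest library. PLPP3, a phosphatase of lysophosphatidic acid and related lipids, had 3498, 1423 and 1358 in the controls and 7601, 7333 and 2999 in the KO libraries. In PLPP3 control replicate 1 lay above KO replicate 3. The glycosyltransferase gene MGAT5B was 2.08-fold lower, and PITPNM3, placed in the same group, was 2.55-fold lower. LACC1, an enzyme of macrophage metabolism, was 2.22-fold higher.

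Ion channel genes and their partners, grouped with the vesicle release gene CADPS, split evenly, 3 higher and 3 lower. KCNAB2, the beta subunit of voltage-gated potassium channels, had 1754, 1030.0 and 1090.0 normalized counts in the controls and 5413, 4827 and 4954 in the KO libraries. It had the largest fold of the higher genes, 3.92-fold, with the groups well apart. TPCN1, a two-pore channel of endosomes, had 2375, 1461 and 1332 in the controls and 6474, 6618 and 3021 in the KO libraries. CADPS, which primes secretory vesicles, was 2.41-fold higher with KO replicate 3 as its highest library. The potassium channel gene KCNQ3, the sodium leak channel gene NALCN and the kainate receptor partner gene NETO2 were 2.16-fold, 2.05-fold and 2.11-fold lower, without overlap.

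Genes of transcription, chromatin and DNA repair, grouped with the retroelement-derived gene PEG10, also split 3 and 3. MSC, a basic helix-loop-helix repressor, had 1171, 681 and 742 normalized counts in the controls and 2429, 2369 and 1699 in the KO libraries. POLM, a DNA polymerase of end joining, was 2.29-fold higher and very even, 1478 ± 55.5 against 3383 ± 93.0 (SD, n = 3). PEG10, an imprinted gene derived from a retrotransposon, had 16648, 19052 and 19229 in the controls and 6507, 6738 and 8730.3 in the KO libraries. The linker histone gene H1F0 was 2.32-fold lower and the zinc finger and homeobox gene ZHX1 2.02-fold lower. Of 47 developmental transcription factor genes in a list 4 were in the table, SOX4, SOX2, SOX12 and TWIST2, all higher, and SOX4 was the only one at 500 or more in every library. SOX2 had a level of 5.48 ± 1.83 in the controls and 23.7 ± 6.07 in the KO libraries, and SOX12 was listed at 0 in the controls.

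Genes of stress, survival and kinase signalling were 3 lower and 3 higher. HSPB1, a small heat shock protein, had 6327, 6642 and 6238 normalized counts in the controls and 2403, 2540.0 and 3721 in the KO libraries. S100A2, a calcium-binding protein of epithelial cells, had 7158, 8243 and 9236 in the controls and 2889.9, 2971 and 4049 in the KO libraries. MAPK11, a stress-activated MAP kinase, was 2.28-fold lower. The higher members were the survival gene BCL2A1, the calcineurin regulator gene RCAN3 and RIPK4, a kinase of epidermal differentiation. RIPK4 had 878, 971 and 788 in the controls and 2389, 2458 and 1591 in the KO libraries, and RCAN3 was 2.39-fold higher. BCL2A1, a relative of BCL2, was 2.01-fold higher, 948 ± 192 against 1909 ± 468 (SD, n = 3).

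Cytoskeletal and trafficking genes were 5 lower and 2 higher. SH3TC2, a protein of endosome recycling, had 3427, 2175 and 2233 normalized counts in the controls and 725, 794 and 1028 in the KO libraries. FAM83H, which organises keratin filaments, had 6302, 5693 and 5747 in the controls and 2044, 2147 and 2184 in the KO libraries. AFAP1L2, an adaptor linked to Src kinases and actin, had 2208, 2523 and 2585 in the controls and 843, 744 and 1311 in the KO libraries. ARHGDIB and the kinesin gene KIFC2 were 2.14-fold and 2.05-fold lower. PDE4DIP, a centrosome and Golgi protein, and LIMD2 were 2.09-fold and 2.05-fold higher. No member came from a list of 41 cytoskeletal genes, of which KRT19, KRT7 and NES were in the table below 500 in at least 1 library.

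Genes of ubiquitin and ADP-ribose transfer were 3 lower and 2 higher. FBXO32, the muscle-atrophy ubiquitin ligase subunit, had 10572, 6792 and 7378 normalized counts in the controls and 3359, 3638 and 3440.2 in the KO libraries. TRIM59 was 2.07-fold lower and PARP10 2.11-fold lower, and RHOBTB3 was 2.22-fold higher. TRIM16L, 947 ± 213 against 1894 ± 291 (SD, n = 3), is a close copy of TRIM16, RPL26L1, 2.55-fold lower, is a close copy of RPL26, and PDE4DIP has duplicated copies, so reads of these genes may have been split and their values are uncertain. TMEM158, a membrane protein first described in Ras-induced senescence, had 3885, 3151 and 3475 in the controls and 1138, 1076 and 953 in the KO libraries. C2CD2, a little-described membrane protein, had 2308, 2315 and 2125 in the controls and 5488, 5461 and 5255 in the KO libraries. SEL1L3 overlapped between groups, with 2504, 1386 and 1329 in the controls and 4293, 4585 and 2104 in the KO libraries. ITFG1 was lower in every KO library, 1588 ± 87.0 against 792 ± 76.2 (SD, n = 3). None of 21 broadly used and none of 25 cell cycle genes in a list was in the table, so nothing is known of them here. The lists for hypoxia, lipid metabolism, oxidative stress, proteases and MAPK output held no member and had 1 or 2 genes each in the table, CA9 lower and the others higher, and that for innate immunity held LY6E and 4 further rows.

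**Figure D3:**
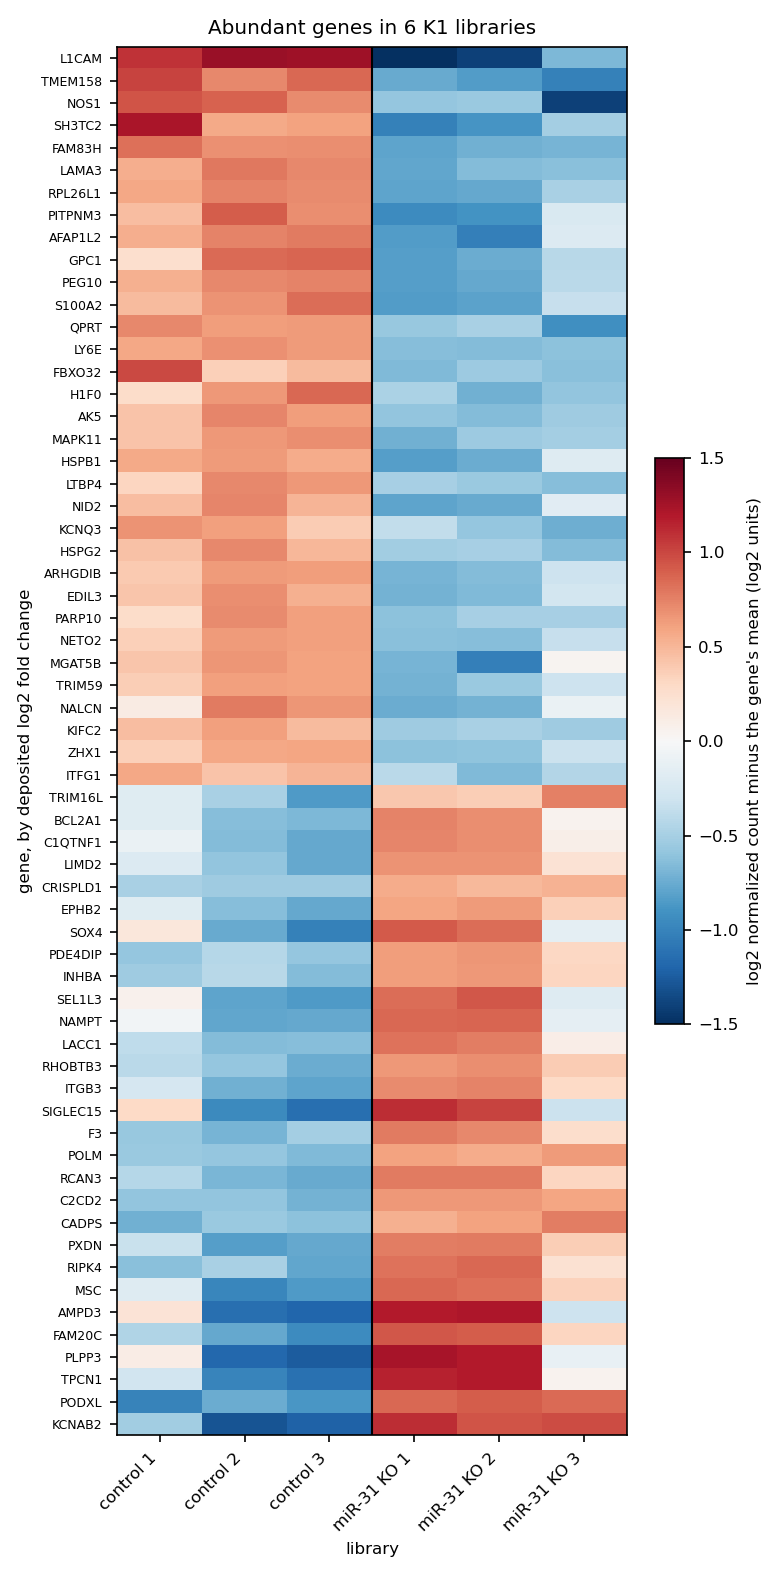
Rows are the abundant genes described, ordered by the deposited log2 fold change and columns are the 6 libraries, with color for the log2 normalized count minus the mean of the gene over 6 libraries. Many higher genes are paler in control replicate 1 and in miR-31 KO replicate 3 than in the other libraries, while the lower genes separate in every library.

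The shading across libraries was shared by many genes. In 23 of the 30 higher genes the highest control was replicate 1, against 43.8% of all higher rows, and in 25 of 30 the lowest KO library was replicate 3, against 50.8%. Among the 33 lower genes replicate 1 was the lowest control in 24 and replicate 3 the highest KO library in 22, against 50.6% and 49.1% of all lower rows. Position was set to 0 at the close pair of a library's own group and to 1 at the close pair of the other group, on the log2 scale. The median position in the higher genes was 0.331 for control replicate 1 and 0.318 for KO replicate 3, and in the lower genes 0.146 and 0.193. Over all rows the medians were 0.0421 and 0.0841 for higher genes and 0.0694 and 0.0911 for lower genes. Whether this shift of 2 libraries has a part in the differences between groups was not tested.

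**Figure D4:**
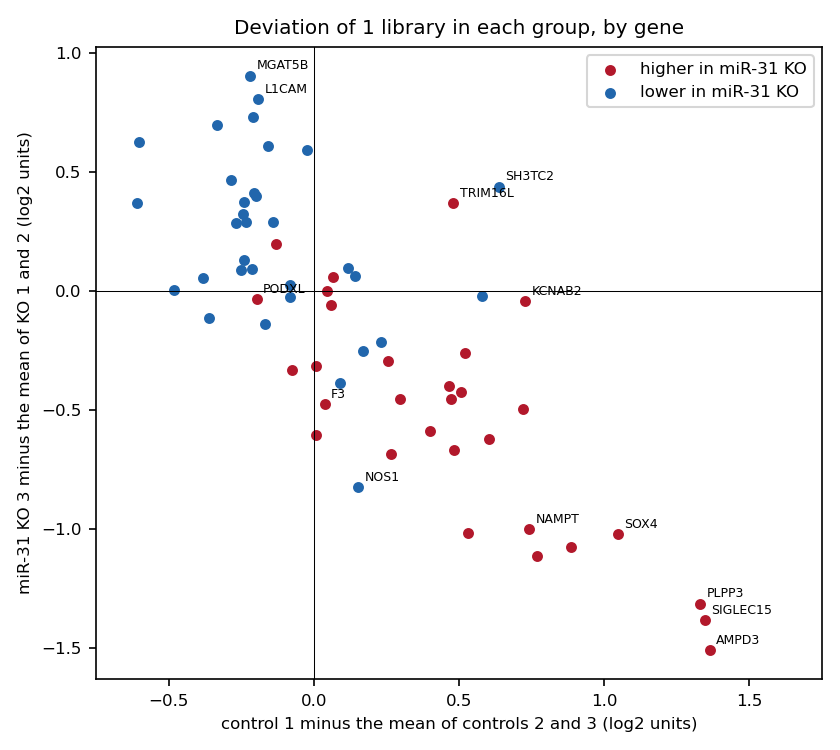
Each point is 1 of the 63 genes, with control replicate 1 minus the mean of controls 2 and 3 on the x axis and miR-31 KO replicate 3 minus the mean of KO 1 and 2 on the y axis, both in log2 units. Genes higher in miR-31 KO (red) extend to the lower right, with AMPD3, SIGLEC15 and PLPP3 farthest, while PODXL and C2CD2 lie near the centre.

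Across the 63 genes the deviation of control replicate 1 and that of KO replicate 3 had a Pearson r of -0.78 and a Spearman rank correlation of -0.73. Within the 30 higher genes r was -0.77, within the 33 lower genes -0.35, and over all 986 rows -0.31. These are descriptions across genes that share the same 6 libraries and are no independent replicates. In SOX4 control replicate 1 had 2.06 times the mean of controls 2 and 3, and KO replicate 3 had 0.492 times the mean of KO 1 and 2. In F3 the corresponding ratios were 1.02 and 0.718. Of the close pairs alone, KO replicates 1 and 2 had 3.37 times the SOX4 level and 2.54 times the F3 level of controls 2 and 3. In the rows left out by name the median positions were 0.357 for control replicate 1 and 0.274 for KO replicate 3 in 21 higher genes, and 0.340 and 0.139 in 5 lower genes.

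The table-wide limma refit, which estimates the spread from genes already selected, called 49 of the 63, against 45.3% of all rows. It called 31 of 33 lower and 18 of 30 higher genes at an adjusted p under 0.05. In this and the other refits the share of all rows called was not computed by direction. The splits are therefore not read as a trait of the members. The 12 higher genes that this refit did not call were the 7 with overlap and TRIM16L, BCL2A1, C1QTNF1, LIMD2 and TPCN1, and the lower ones were MGAT5B and NALCN. With control replicate 1 and KO replicate 3 both left out, a choice made after seeing the data, limma called all 63, against 51.2% of all rows. Rescaling the libraries to equal median ratios over the rows lowered the log2 difference of the median row by 0.71. The limma refit then called 33 lower and 2 higher genes, KCNAB2 and PODXL, against 43.7% of all rows. All 63 genes kept their direction under that rescaling. Other refits gave 44 calls with a pseudocount of 0.1 against 39.5% of all rows, 46 after quantile normalization against 47.8%, 43 with a mean of at least 50 against 50.1%, and 53 with a replicate block against 42.3%. Without control replicate 1 the refit called 51 against 42.6% of all rows, and without KO replicate 3 it called 51 against 40.2%. Without control replicate 2 it called 9 against 18.5%, without control replicate 3 it called 10 against 19.2%, without KO replicate 1 it called 7 against 15.8%, and without KO replicate 2 it called 10 against 18.8%. Since the rows were selected for change, rescaling over them cannot say which scaling is right.

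The places of the members on the chromosomes are described after the values were seen. Chromosomes 1 and 8 held 9 members each and chromosome 7 held 7. On chromosome 8, which has 37 of the 986 rows, 7 of the 9 members and 23 of the 37 rows (62.2%) were lower. The 7 were ZHX1, FBXO32, KCNQ3, LY6E, FAM83H, PARP10 and KIFC2, all between 123248451 and 144474202 (GRCh38), where the table holds 12 genes in all, 11 lower and 1 higher. Since the ends of that span are those of lower members, nothing is read from its count. The higher members of chromosome 8, MSC and CRISPLD1, lay outside that span. On chromosome 16 the 3 members, QPRT, NETO2 and ITFG1, were all lower, as were 37 of 49 rows there. Over all 986 rows 39.9% were lower, and the lower share by chromosome ran from 0% on Y to 75.5% on 16. These chromosomes were picked after the values were seen, so their counts are descriptions only. NETO2 and ITFG1 lie 10389 bases apart, ZHX1 and FBXO32 222347, and RIPK4 and C2CD2 on chromosome 21, both higher, 118005. In all 5 such pairs of members within 500 kb the direction was the same. The remaining pairs, FAM83H with PARP10 and PARP10 with KIFC2, share a gene and lie in the chromosome 8 span, as do ZHX1 and FBXO32. The same share was not computed over neighbouring rows of the table, so nothing is read from the count of pairs. Neighbouring genes are not independent, and the number of copies of these regions in either group was not tested.

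Markers of cell types were checked over the same table. Of 8 thyroid follicular markers DUOX2 and SLC26A4 were in the table, and their summed normalized counts ranged from 69.7 to 116 over the controls and from 31.0 to 37.0 over the KO libraries. Of 4 fibroblast markers LUM and PDGFRA were in the table, with sums of 2.01 to 8.49 over the controls and 26.7 to 42.5 over the KO libraries, and LUM was listed at 0 in the controls. Of 3 leukocyte markers CD3D and ITGAM were in the table, with sums of 5.62 to 20.03 and 21.9 to 97.7. Of 4 endothelial markers ERG and KDR summed to 645 to 710.3 and 522 to 629, but went opposite ways, ERG being lower (474 ± 32.8 against 134 ± 2.25, SD, n = 3) and KDR higher (213 ± 52.0 against 432 ± 54.2, SD, n = 3). Of 5 epithelial markers KRT19 had 984 to 1649 and 404 to 571. The part of these differences in the values of the 63 genes was not tested. The normalized counts of all 986 rows summed to between 545354 and 943360 per library, and the 63 genes made up between 36.7% and 45.05% of that sum.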

How the data were processed

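One deposited table was analysed, with RNA sequencing values of 3 control and 3 miR-31 KO libraries. The authors made its library values, a signal on a normalized count scale; they are not whole, and reads were not recovered from them. The submitters' processing notes name hg19 and hg38 as builds and RSEM, HISAT and Bowtie2 as tools, without saying what each did. Their versions, the normalization and the test were not given in the sources used here. The authors also deposited a log2 fold change, positive where the KO mean was higher in each of the 986 rows, and a p-value with its adjusted form. Dividing adjusted p by p for the first row gives 16806 tested genes.

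The 63 members and all gene lists were chosen with earlier results of these data known, and the roles after their values were seen. The genes named first were SOX4, F3, the 12 largest rises, the 12 largest falls, the list members and those at the minimum; library values of other members are shown by choice after seeing them. Folds are ratios of group means. Because the rule and the table used this contrast, no test of direction was run. Alternatives were limma 3.58.1 refits in R 4.3.3 (trended eBayes, pseudocount of 1 before log2) on all 986 rows, with Benjamini-Hochberg adjustment over 16806 genes. The limma fit was also run on simulated data with known folds, where it missed most genes changed 2-fold. A missing call at that size is therefore not read as no difference. Positions, 3′ UTRs and transcript lengths came from GENCODE 29, matched by symbol for 63 of 63 members and 966 of 986 rows. RefSeq promoters were matched for 46 members. The authors' annotation may differ. No pair of libraries was identical; the closest were KO replicates 1 and 2, with a median absolute log2 difference over members of 0.0471, then control replicates 2 and 3 with 0.0901. The remaining steps ran in Python 3.11.15 (numpy 2.4.6, pandas 2.3.3, scipy 1.17.1). The values of 1 member are not reported here, although counts over all 63 include it.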

Additional observations from a re-analysis of the deposited data

How the results depend on the processing

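The rule gave 118 genes at a minimum of 250, 35 at a minimum of 1000 and 140 with a mean of 500 or more, and 63 to 66 when it was applied without 1 library. The authors' adjusted p under 0.01 kept all 63. The limma refits called 49 of the 63, 44 with a pseudocount of 0.1, 46 after quantile normalization, 43 over rows with a mean of 50 or more, a smaller set of rows, and 35 after median-ratio rescaling. Leaving out 1 library gave 7 to 51 calls. There were 9 when control replicate 2 was dropped, 10 for control replicate 3, 7 for KO replicate 1, 10 for KO replicate 2, and 51 each for control replicate 1 and KO replicate 3. The share of all rows called ranged from 15.8% to 42.6% in these fits, and the cause was not tested. A replicate block gave 53 calls. Deviations of libraries with equal numbers correlated at 0.20, -0.13 and 0.15 over genes, which gives no pairing of libraries by number. The groups did not overlap in 52 members after median-ratio rescaling and in 53 after quantile normalization. The share over all rows was not computed under either scaling, so these counts have no background beside them. The median size of the log2 difference was 1.19, with 1.14 to 1.29 without 1 library, 1.22 after quantile normalization and 1.71 after median-ratio rescaling. That rescaling by construction lowers KO against control, so the median of the higher genes shrank from 1.17 to 0.45 while that of the lower genes went from -1.19 to -1.90. Quantile normalization lowered the log2 difference of the median row by 0.54. Seed sites were in 42.9% of members with the 6-base match counted, against 32.8% of all rows. They were in 11.1% against 13.2% with 8mer or 7mer-m8 sites, and in 19.05% against 21.05% in any annotated 3′ UTR. With the 6-base match counted they were in 46.7% of higher and 39.4% of lower members, the reverse of the main order. With 8mer or 7mer-m8 sites these shares were 3.33% and 18.2%, and in any annotated 3′ UTR 13.3% and 24.2%. Values of single members were taken from the limma refits above and from that without control replicate 1 and KO replicate 3. That last refit was chosen after seeing the data and kept all 63 calls, which raises the count of kept calls. Of these 819 values, 471 kept their call, 347 lost it and 1 reversed, NAMPT at -0.18 after quantile normalization. Low depth could not be assessed, since total counts are unknown.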
